A study of Mus musculus with 28 samples.

Results

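Egr1, Egr2, Egr3, Nr4a1, Nr4a2, Nr4a3, Ier2, Ier3, Ier5 and Srf are 10 immediate early genes. They were selected by symbol from the 36806 genes of each deposited table, with earlier results of these data known. Their RNA was followed in bone marrow-derived macrophages grown from FVB/Hsd mice, infected with retroviral hairpin vectors, selected with puromycin and used on day 7 of differentiation. Stimulated cells were given 10 ng/ml of LPS, the bacterial lipopolysaccharide that macrophages sense through the receptor TLR4. Most libraries hold 4sU RNA, which was labelled with 4-thiouridine for the last 45 min before harvest and is therefore enriched in newly made transcripts. The 28 libraries form 6 sets with 1 library per condition.

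In the unstranded 4sU set, cells with the empty vector LMP and cells with the Wdr82 hairpin sh1137 were untreated or received LPS for 45 min, 2 h or 4 h. The stranded 4sU set compared the same vectors in untreated cells and after 1 h of LPS, and the polyA set compared them in untreated cells and after 4 h of LPS. In the DRB set, cells with a scrambled hairpin or with sh1137 all received LPS for 45 min, with or without pre-treatment with DRB, a drug that keeps RNA polymerase II from entering productive elongation. The Set1a+Set1b set and the Pnuts set held strand-specific 4sU RNA of cells with a scrambled hairpin or with the hairpins named, before and after 45 min of LPS. The times of LPS are those in the sample titles, whereas the protocol text given for every sample names only 4 h. No file settles this, so each time stands for the title of its library. Wdr82 was targeted with a single hairpin, so its effect cannot be told apart from other effects of that hairpin, nor, against the empty vector, from those of carrying any hairpin.

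Immediate early genes are switched on by a stimulus without the need for new protein. After TLR4 is engaged, MAP kinases activate ternary complex factors that sit with the transcription factor SRF on CArG boxes, and CREB on cyclic AMP response elements, at the promoters of many such genes. EGR proteins are zinc finger transcription factors, and NR4A proteins are orphan nuclear receptors that restrain inflammatory gene expression in macrophages. IER proteins are small regulators of growth and survival. WDR82 is a subunit of the SET1A and SET1B histone methyltransferase complexes and of a complex of PNUTS with protein phosphatase 1, which acts in transcription termination. The labels state that hairpins were used to lower WDR82, SET1A with SET1B, or PNUTS.

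The levels are FPKM (fragment counts divided by transcript length and by the library's mapped fragments), and 11533 to 13799 genes reached 1 FPKM in a library. The tables hold no read counts, so depth is known only as a ratio read from the steps between low values, which differed by 1.59-fold to 3.34-fold between libraries of a set. Macrophage markers summed to 1927 to 12293 FPKM per library, and 7 or all 8 of them reached 1 FPKM. Both ends of this range are polyA libraries. Lyz2 was listed at 0 in the untreated LMP, untreated sh1137 and 4 h LMP polyA libraries, but not in the 4 h sh1137 one. Over all libraries its median was 2302 FPKM and its highest value 9141 FPKM, so the polyA sums differ in whether Lyz2 is counted. The sums were 3.80 to 85.0 FPKM for 8 neutrophil markers, 2.31 to 115 FPKM for 7 lymphocyte markers and 0.684 to 11.9 FPKM for 6 stromal markers, and no erythroid or mast cell marker reached 1 FPKM. Wdr82 was lower with sh1137 in all 10 pairs of libraries (log2 ratio -2.23 to -0.72). The PNUTS gene Ppp1r10 had log2 ratios of 0.68 and 0.70 in the libraries labelled Pnuts hairpin, above rather than below the scrambled ones, and Setd1a and Setd1b were not 2-fold lower in the libraries labelled Set1a+Set1b hairpins.

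The promoters were read to show which of the elements named above lie next to each start site. RefSeq (GRCm38.p6) gave windows of 300 bases, from 250 before to 50 after a start, for 7 of the 10 genes (11 windows, since a gene can have several starts), and Egr1, Egr3 and Ier2 had no entry. Egr2 and Srf held CArG boxes, the SRF element, which 1.63% of all 32851 windows hold on either strand. Srf, the gene for the factor itself, carries a pair of them. In the lines that follow the CArG boxes are in capitals.
Egr2, chr10:67537787-67537816, plus strand: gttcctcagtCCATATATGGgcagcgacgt
Egr2, chr10:67537484-67537513, plus strand: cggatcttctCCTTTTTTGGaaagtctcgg
Srf, chr17:46556215-46556244, minus strand: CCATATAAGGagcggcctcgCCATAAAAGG

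Nr4a1 and Ier3 held CArG-like elements, with 1 G or C in the core, which 8.5% of all windows hold. A window of Egr2 held another, not shown. Both genes responded to LPS in the measurements described next. Ier5 responded too, but its window held neither a CArG box nor a CArG-like element. Srf, with its pair of CArG boxes, passed in none of the LPS fits. A link between these elements and the response was not tested. The elements of Nr4a1 and Ier3 are shown in capitals.
Nr4a1, chr15:101266735-101266764, plus strand: ccccccgcgcCCTTGTATGGccaaagctcg
Ier3, chr17:35821528-35821557, plus strand: tagagaataaCCAATCAAGGctccgcctac
Ier3, chr17:35821632-35821661, plus strand: cggcccggccCCTTCTTTGGctctataagt

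The 3 NR4A genes shared another feature. Each of their windows held 4 copies of TGACG, the core of the cyclic AMP response element, counted on both strands so that CGTCA is the same core read on the other strand. At least 1 copy was present in 20.8% of all windows and at least 4 in 0.231%. The closest pair of each gene is printed with the cores in capitals, because these 3 genes share the motif while, as described next, their timing after LPS differed. The full element TGACGTCA (1.79% of all windows) and the NR4A binding element AAAGGTCA (1.51%), searched on both strands, matched none of the 11 windows. A match describes letters in a window and does not show that a factor is bound.
Nr4a1, chr15:101266611-101266639, plus strand: tgCGTCAatggaaccccgcgtgCGTCAcg
Nr4a2, chr2:57124104-57124132, minus strand: ccgggcTGACGgggccgcTGACGcgcttg
Nr4a3, chr4:48045084-48045112, plus strand: tcccatgtCGTCAcatTGACGtctcgcat

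In unstimulated macrophages the IER genes were the most abundant of the 10. Untreated LMP cells of the unstranded set had 39.7 FPKM of Ier5, 29.7 of Ier3 and 24.1 of Ier2, followed by 9.40 of Srf. Egr1 (2.84 FPKM), Nr4a1 (1.62) and Egr2 (1.07) were just above 1 FPKM, and Egr3 (0.274), Nr4a2 (0.261) and Nr4a3 (0.126) were below it. With 1 library per condition, neighbours in this order cannot be told apart. Over all 28 libraries Ier2, Ier3, Ier5 and Srf stayed at or above 1 FPKM throughout, Egr2 reached it in 26 libraries, and Nr4a2 in 4. Srf had the narrowest range, from 4.75 to 14.6 FPKM, and Egr1 ranged from 0.199 to 805 FPKM.

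The first question was how the genes responded to LPS over time. After 45 min new RNA of the EGR genes, Nr4a1 and the IER genes had risen, while Nr4a2, Nr4a3 and Srf did not pass the test. Egr1, a zinc finger factor often used as a readout of MAP kinase signalling, went from 2.84 to 362 FPKM in LMP cells and from 2.61 to 443 FPKM in sh1137 cells. Egr2 (chr10:66998223-67004936 in mm9), a regulator of macrophage and lymphocyte gene programmes, went from 1.07 to 52.4 FPKM and from 3.48 to 115.8 FPKM. Egr3 (chr14:70477252-70479964) went from 0.274 to 8.52 FPKM and from 1.00 to 21.4 FPKM. For each of these genes both stimulated libraries lay far above both untreated libraries, a separation not counted over all genes. In a limma fit of vector plus time over the 8 libraries, the difference on the log2(FPKM + 1) scale was 6.75 (SE 0.166, adjusted p = 0.00039) for Egr1, 4.70 (SE 0.416, adjusted p = 0.00762) for Egr2 and 3.19 (SE 0.246, adjusted p = 0.00538) for Egr3. Adjusted p-values are Benjamini-Hochberg over all genes tested. Since each condition is 1 library, the error they rest on is only the departure of libraries from additive effects, not a spread between replicates. In bulk RNA, fewer cells expressing a gene and less RNA per cell cannot be told apart.

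The IER genes rose from a higher base. Ier3 (chr17:35958658-35959856), which encodes the stress-inducible survival factor IEX-1, went from 29.7 to 271 FPKM in LMP cells and from 62.4 to 818 FPKM in sh1137 cells. Ier2 (chr8:87185230-87186751), a nuclear protein gene, went from 24.1 to 180.3 FPKM and from 15.0 to 200.045 FPKM. Ier5 (chr1:156943497-156946766), whose product works with the phosphatase PP2A, went from 39.7 to 127 FPKM and from 36.8 to 125 FPKM. The untreated and stimulated libraries did not overlap for these 3 genes, a separation not counted over all genes. The limma differences were 3.42 (SE 0.208, adjusted p = 0.00268) for Ier3, 3.25 (SE 0.199, adjusted p = 0.00272) for Ier2 and 1.70 (SE 0.0767, adjusted p = 0.00135) for Ier5.

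The NR4A genes divided by timing. Nr4a1 (Nur77, chr15:101097277-101105223) went from 1.62 to 8.04 FPKM in LMP cells and from 1.56 to 13.8 FPKM in sh1137 cells (limma difference 2.16, SE 0.263, adjusted p = 0.0176). Nr4a3 (chr4:48058025-48099319) went from 0.126 to 1.06 FPKM and from 0.286 to 6.24 FPKM, and this difference of 1.68 (SE 0.468) did not pass (limma adjusted p = 0.116). With a pseudocount of 0.1 in place of 1 FPKM it was 3.20 and passed (limma adjusted p = 0.0324). Nr4a2 (chr2:56959241-56976414) was 0.261 and 0.277 FPKM in LMP cells and 0.07 and 1.05 FPKM in sh1137 cells (limma adjusted p = 0.429). Srf, the factor upstream, was 9.40 and 13.7 FPKM in LMP cells and 5.92 and 8.87 FPKM in sh1137 cells, a limma difference of 0.51 (adjusted p = 0.177). The locus given for Srf (chr17:46579397-46968362) spans 389 kb and is shared by 20 genes, and its deposited bounds reached from 0 to 48.5 FPKM in stimulated LMP cells, so its level is uncertain.

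In all, 7 of the 10 genes rose at 45 min and none fell, where 4.51% of the 16106 genes tested rose and 1.78% fell. The median over the 10 genes was 2.67, against 0.05 over all genes tested. Other immediate early genes behaved in the same direction: of 31 measured of a list of 35, 21 rose and none fell (median 2.19). The list's highest ratio in LMP cells was that of Tnfaip3, the gene for the NF-kB inhibitor A20, at 26.0 and 1676 FPKM, and its lowest was that of Dusp6, an ERK phosphatase gene, at 77.8 and 39.7 FPKM. Of 9 genes for SRF cofactors and for EGR and NR4A partners (the ELK, MKL, NAB and RXR proteins), none passed in either direction. Of 13 measured cytoskeletal targets of SRF, Actg1 (0.85), Tagln2 (0.83) and Tpm4 (0.62) rose by these log2 differences.

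**Figure D1:**
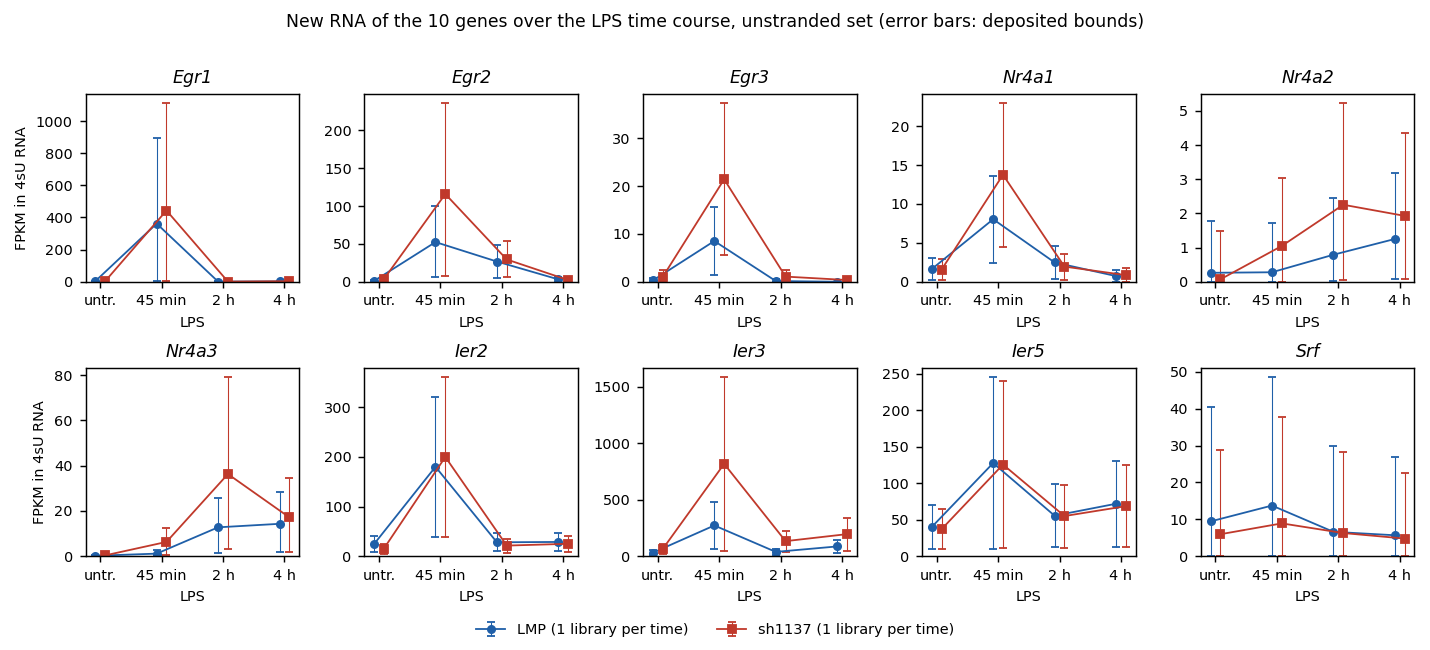
FPKM in 4sU RNA (y axis, a separate linear scale per gene) of the 10 genes in untreated macrophages and after 45 min, 2 h and 4 h of LPS (x axis), in LMP (blue circles) and sh1137 (red squares) libraries, 1 per point, with the deposited bounds as error bars. The EGR genes, Nr4a1 and the IER genes peak at 45 min, Nr4a2 and Nr4a3 are highest at 2 h or 4 h, and Ier3 is higher with sh1137 at each time.

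By 2 h the EGR genes had parted from each other. The comparisons at 45 min, 2 h and 4 h share the untreated library of each vector. Egr1 was 0.772 FPKM in LMP and 0.869 FPKM in sh1137 cells, 0.213% and 0.196% of its level at 45 min and below the untreated level (limma difference from untreated -1.03, SE 0.166, adjusted p = 0.0141). Without the 45 min libraries that adjusted p was 0.0502. Egr3 was 0.148 and 1.07 FPKM, 1.74% and 5.01% of its 45 min level. Egr2 was still 26.7 and 29.4 FPKM, 50.9% and 25.4% of its 45 min level, and above untreated cells (3.25, SE 0.416, limma adjusted p = 0.00785). At 4 h Egr2 was down to 3.11 and 2.22 FPKM, while Egr1 was 2.19 and 3.38 FPKM. Egr3 was listed at 0 in LMP cells and at 0.358 FPKM in sh1137 cells at 4 h.

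Nr4a3 followed the opposite course. It was 12.7 FPKM in LMP and 36.2 FPKM in sh1137 cells at 2 h (limma difference 4.23, SE 0.468, adjusted p = 0.00558), and 14.2 and 17.1 FPKM at 4 h (3.79, SE 0.468, adjusted p = 0.0032). Its highest library was thus the one at 2 h with sh1137 and the one at 4 h with LMP. Nr4a2 was 0.790 and 2.25 FPKM at 2 h and 1.25 and 1.93 FPKM at 4 h, where it passed with a limma difference of 1.14 (adjusted p = 0.042). Without the 45 min or the 2 h libraries that p was 0.0692 or 0.0603. Nr4a1 had returned to 2.48 and 1.95 FPKM at 2 h and 0.726 and 0.849 FPKM at 4 h.

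The IER genes fell back less far than Egr1. Ier3 was 36.8 and 132 FPKM at 2 h and 85.2 and 194 FPKM at 4 h, where it was above untreated cells (limma difference 1.56, SE 0.208, adjusted p = 0.00407). Ier5 was 55.3 and 54.8 FPKM at 2 h (0.51, limma adjusted p = 0.0117) and 71.7 and 68.4 FPKM at 4 h (0.86, limma adjusted p = 0.00124). Ier2 was back to 27.7 and 21.1 FPKM at 2 h. At 2 h 3 of the 10 genes were higher than in untreated cells (15.8% of all genes tested) and 1 was lower (8.23%), and at 4 h 4 were higher (26.8%) and none lower (14.9%). At 4 h the median of all genes tested was itself 0.14 above untreated cells. Neutrophil markers were also higher at 4 h, where 3 of the 6 measured passed (S100a8, S100a9 and Camp), and their sum was 26.3 FPKM in untreated and 61.2 FPKM in 4 h LMP cells. Their part in the later values of these genes was not tested.

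Of the 31 other immediate early genes measured, 15 were higher and 7 lower at 2 h than in untreated cells (15.8% and 8.23% of all genes), and 16 higher and 6 lower at 4 h (26.8% and 14.9%). In LMP cells at 2 h Dusp6 was the lowest by ratio (77.8 and 5.55 FPKM), and Tnfaip3 the highest at 825 FPKM. Nab2, which encodes a corepressor that binds EGR proteins, rose from 12.5 to 26.3 FPKM at 2 h in LMP cells (limma difference 1.04, SE 0.25, adjusted p = 0.0387). Nab1, its homologue, rose from 26.8 to 72.2 FPKM at 4 h (1.51, SE 0.14, limma adjusted p = 0.00145). Elk3, a ternary complex factor gene, fell from 29.3 to 4.71 FPKM at 4 h (-2.10, SE 0.17, limma adjusted p = 0.001). SRF's cytoskeletal targets were higher at 4 h for 8 of 13 measured (26.8% of all genes) and lower for 1, Tpm1 (14.9%), while Srf itself was 5.64 and 4.75 FPKM.

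The libraries titled 1 h belong to the stranded set and had a different Egr1 level from the start. Egr1 was 26.8 FPKM in untreated LMP and 34.5 FPKM in untreated sh1137 cells, and 5.20 and 5.61 FPKM after LPS. Both stimulated libraries were thus below both untreated ones, a separation not counted over all genes. The limma difference was -2.29 (SE 0.152, adjusted p = 0.0162). Egr2 was 2.53 and 39.6 FPKM in LMP and 18.0 and 72.5 FPKM in sh1137 cells (2.74, SE 0.401, limma adjusted p = 0.0832). Ier3 was 82.7 and 313 FPKM in LMP and 168 and 604 FPKM in sh1137 cells (1.87, SE 0.125, limma adjusted p = 0.0162). Ier5 was 36.6 and 63.9 FPKM in LMP and 31.2 and 57.8 FPKM in sh1137 cells (0.83, limma adjusted p = 0.0868). Ier2 was 41.1 and 21.97 FPKM in LMP and 19.7 and 19.3 FPKM in sh1137 cells, and Nr4a1 stayed between 1.58 and 3.79 FPKM. Of 9 genes tested, 1 rose (0.838% of all genes did) and 1 fell (0.293%). The tables were normalized separately, so the levels are not compared between sets by a test.

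The response at 45 min could be set beside 2 further sets with scrambled control hairpins. In the Set1a+Set1b set, Egr1 was 9.21 and 409.8 FPKM in scrambled cells and 22.5 and 476 FPKM in cells with the hairpins. In the Pnuts set it was 3.13 and 306 FPKM in scrambled cells and 6.502 and 805 FPKM in the libraries labelled Pnuts hairpin. The limma differences were 4.84 (SE 0.293, adjusted p = 0.0297) and 6.48 (SE 0.174, adjusted p = 0.0111). Egr2 (4.10 and 4.53) and Ier3 (2.53 and 2.74) passed in both sets with limma adjusted p-values of 0.0142 to 0.0239. Ier2 (2.69, adjusted p = 0.02) and Ier5 (1.31, adjusted p = 0.0388) passed in the Set1a+Set1b set, and Egr3 (2.79, adjusted p = 0.0384) in the Pnuts set, all by limma. Thus 5 of 9 genes tested rose in the Set1a+Set1b set (2.62% of all genes) and 4 of 9 in the Pnuts set (1.9%), and none fell in either (0.797% and 0.24%). When limma's prior variance was not allowed to follow the mean level, none of the 13679 and 13762 genes of these fits passed, these included.

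Across the 6 pairs of untreated and 45 min libraries in these 3 sets, Egr1, Egr2, Egr3, Nr4a1, Ier2, Ier3 and Ier5 were at least 2-fold higher in every pair. The share of all genes 2-fold higher in all 6 pairs was not computed, and the shares below are for single pairs. Their lowest ratios were 4.34 for Egr1, 3.88 for Egr2, 2.23 for Egr3, 1.34 for Nr4a1, 2.48 for Ier2, 2.37 for Ier3 and 1.19 for Ier5. Srf lay between -0.24 and 0.51. Nr4a3 had log2 ratios of 1.18 to 2.49 in the 3 hairpin pairs and 0.27 to 0.87 in the 3 control pairs, after 1 FPKM was added to values that were mostly near or below 1 FPKM. Without that addition its ratio of FPKM was 8.44 with LMP, 2.05 and 1.501 with the scrambled hairpin, and 21.8, 18.9 and 6.78 in the hairpin pairs, so the ranges overlapped. Of all genes, 5.96% (LMP), 5.56% and 5.68% (scrambled) were 2-fold higher in the control pairs, and 8.71%, 6.17% and 8.41% in the hairpin pairs of the unstranded, Set1a+Set1b and Pnuts sets.

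**Figure D2:**
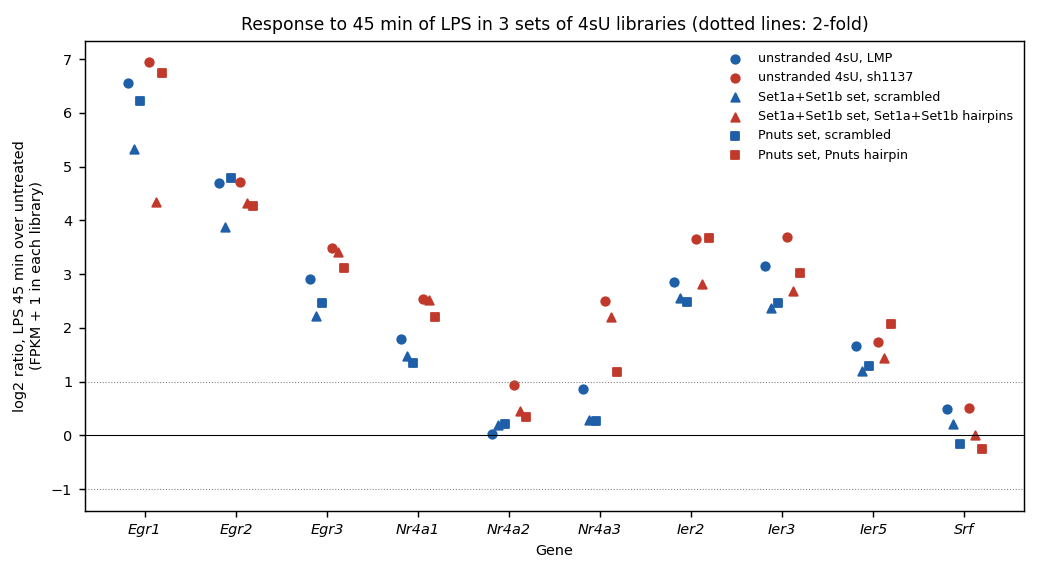
Log2 ratio of LPS 45 min over untreated (y axis, FPKM + 1 in each library) for each of the 10 genes (x axis) in 3 sets, with control vectors in blue and hairpins in red, 1 pair of libraries per point. Egr1 has the highest ratios (4.34 to 6.94), and Srf lies near 0 (-0.24 to 0.51).

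The central question of the study for these genes was what loss of Wdr82 did to their new RNA. Ier3 was the one gene of the 10 that passed. It was higher with sh1137 in all 4 pairs of the unstranded set, at 29.7 and 62.4 FPKM in untreated cells, 271 and 818 FPKM at 45 min, 36.8 and 132 FPKM at 2 h and 85.2 and 194 FPKM at 4 h. The values of each pair come from LMP and then sh1137 cells, and at every time the sh1137 library was more than 2-fold higher. Of the genes with enough RNA, 2 of 8 were 2-fold higher in untreated cells (5.48% of all genes), 4 of 10 at 45 min (8.38%), 2 of 9 at 2 h (6.88%) and 1 of 8 at 4 h (7.04%). None was 2-fold lower, against 2.55%, 3.26%, 3.46% and 3.78% of all genes. The limma difference was 1.41 (SE 0.147, adjusted p = 0.0151). The stranded set gave 0.98 (SE 0.125, limma adjusted p = 0.0426), where Ier3 was again the only one of 9 genes tested to pass (2.46% of all genes were higher and 1.07% lower). Without trend the stranded adjusted p for Ier3 was 0.129, and no gene passed. In the unstranded set the limma adjusted p for Ier3 was 0.0573, 0.0836 or 0.0629 without the untreated, the 45 min or the 2 h pair. The differences were then 1.53, 1.35 and 1.27, and the call was lost each time. Calls over all genes fell in the same refits, to 78 of 15728, 3 of 15771 and 59 of 15889, from 1762 of 16106. Deposited bounds of Ier3 overlapped in each of the 4 unstranded pairs, for example 59.3 to 483 FPKM and 48.3 to 1586 FPKM at 45 min.

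In polyA RNA Ier3 was 10.9 and 25.0 FPKM in untreated cells and 49.9 and 88.1 FPKM at 4 h (0.96, SE 0.144, limma adjusted p = 0.148). No gene passed in that comparison, where limma gave 2382 genes (18.5%) an unadjusted p under 0.05, with 2 of the 6 genes tested here among them. In the DRB set Ier3 was 218 FPKM with the scrambled hairpin and 401 FPKM with sh1137 without DRB, and 22.6 and 25.9 FPKM with DRB. Over all 10 pairs of control and sh1137 libraries Ier3 was higher in 10, with log2 ratios from 0.19 to 1.82 and a median of 1.03. Among genes tested in all 10 pairs, 4.53% were higher in every one.

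The other genes did not pass at sh1137, and 1 of 10 higher and none lower stand beside 5.28% and 5.66% of the 16106 genes tested. Egr3 came nearest, with a limma difference of 0.80 (SE 0.174, adjusted p = 0.052). Egr2 was 1.12 higher in untreated cells and 1.13 higher at 45 min on the log2 scale, but 0.14 at 2 h and -0.35 at 4 h, and its overall difference was 0.51 (limma adjusted p = 0.306). In the stranded set untreated Egr2 was 2.53 and 18.0 FPKM, the one sh1137 pair in which the deposited bounds of any of the 10 genes did not overlap (1.69% of all genes were higher in that way). Nr4a3 was 1.06 and 6.24 FPKM at 45 min and 12.7 and 36.2 FPKM at 2 h, but 14.2 and 17.1 FPKM at 4 h (0.92, limma adjusted p = 0.139). Egr1 (0.18), Nr4a1 (0.13), Ier2 (-0.27) and Ier5 (-0.05) had small differences, with limma adjusted p-values of 0.265 to 0.655. Srf was lower in 8 of the 10 sh1137 pairs (-0.86 to 0.12), and its difference of -0.36 did not pass in the unstranded set (limma adjusted p = 0.134).

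Of 31 other immediate early genes in that fit, Maff (0.44, SE 0.08, limma adjusted p = 0.0377) rose and Dusp4, a MAP kinase phosphatase gene, fell (-0.73, SE 0.15, limma adjusted p = 0.0478). In the stranded set 4 of the list's 32 measured genes fell (1.07% of all genes did) and none rose. These were Fosl1 (-2.71), Fos (-1.84), Myc (-1.04) and Dusp5 (-1.03), with limma adjusted p-values of 0.0189 to 0.0442, and without trend none of the 14312 genes passed. Among 13 measured cytoskeletal targets of SRF in the unstranded set, where 5.66% of all genes fell and 5.28% rose, Flna (-1.04), Actb (-0.61) and Actg1 (-0.60) fell and Acta2 (0.85) rose. Of the RXR genes, whose products pair with NR4A receptors, Rxra rose (0.74, SE 0.11, limma adjusted p = 0.0248). Macrophage markers moved with the vector too: Csf1r, Cd68, Cd14 and Fcgr1 fell and Mrc1 rose, and the sum of the 8 was 2427 to 5040 FPKM over the 4 LMP and 2428 to 3801 FPKM over the 4 sh1137 libraries. The neutrophil sum was 26.3 to 61.2 FPKM in LMP and 34.1 to 85.0 FPKM in sh1137 libraries, and the stromal sum 0.870 to 3.44 FPKM and 2.96 to 4.45 FPKM. In the polyA set the lymphocyte sum, in untreated and 4 h libraries, was 115 and 75.2 FPKM with LMP and 39.0 and 28.3 FPKM with sh1137. The 7 macrophage markers tested there had a median difference of -0.75 with sh1137, against -0.07 over all genes. In the stranded set the lymphocyte sum, in untreated and 1 h libraries, was 7.10 and 7.34 FPKM with LMP and 16.5 and 17.1 FPKM with sh1137. The part of any of these differences in the Ier3 results was not tested.

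Whether LPS acted differently with sh1137 was tested with 1 interaction term over the 8 libraries of the unstranded set. The term set all LPS times together against untreated cells, so it averages over the times and rests on the single untreated pair. None of the 10 genes passed in limma (0.261% of all genes were higher and 0.422% lower), and none had an unadjusted p under 0.05 (3.47% of all genes had). The estimates, LPS effect in sh1137 minus LPS effect in LMP, ran from -0.81 (SE 0.688) for Egr2 to 0.98 (SE 0.748) for Nr4a3. With SEs of that size neither a difference nor its absence is shown. Taken by time, the differences at 45 min, 2 h and 4 h were 0.01, -0.98 and -1.47 for Egr2, without a test. For Nr4a3 they were 1.62, 1.25 and 0.05. The Ier3 estimate was 0.48 (SE 0.305), and Nr4a2 came nearest at 0.88 (SE 0.306, unadjusted p = 0.056 in limma).

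**Figure D3:**
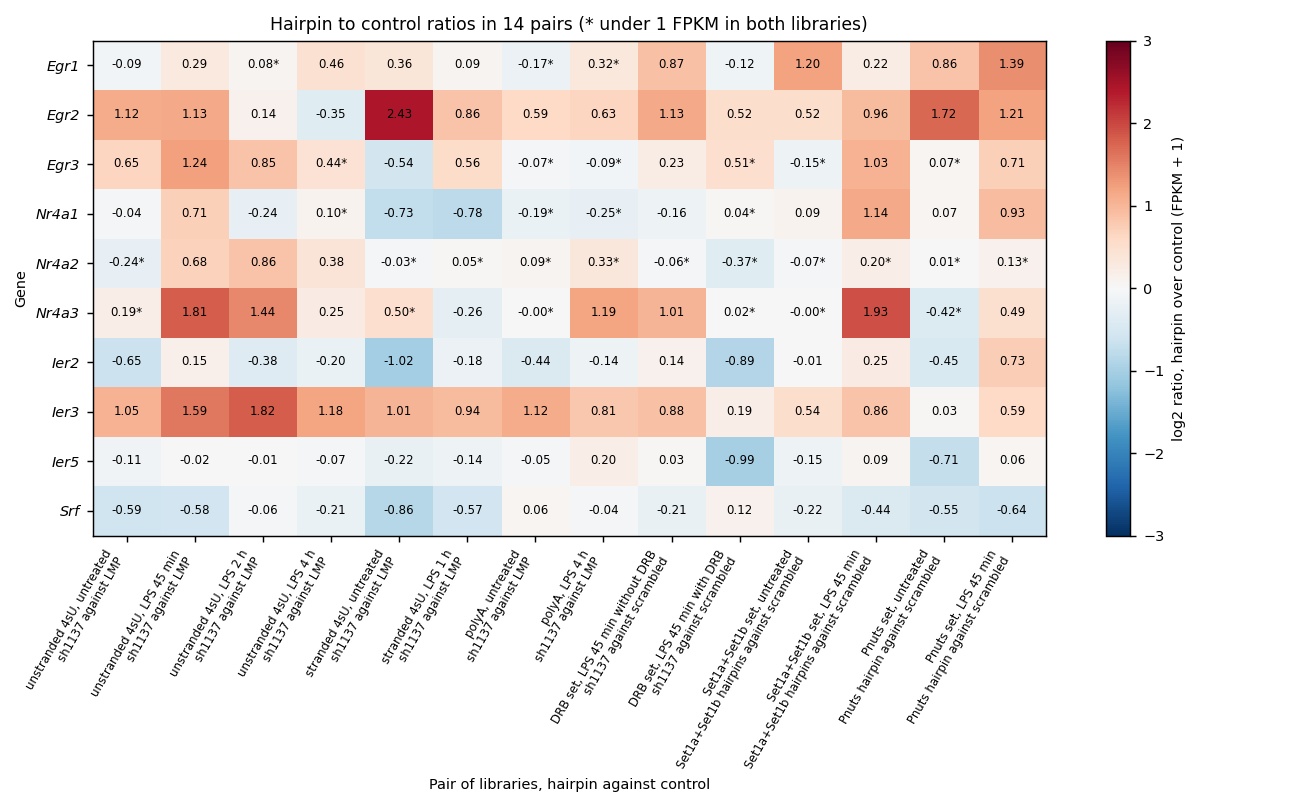
Log2 ratio of hairpin over control (colour and printed value, FPKM + 1) for the 10 genes (rows) in 14 pairs of libraries (columns), an asterisk marking genes under 1 FPKM in both libraries. Ier3 is above 0 in all 14 pairs (0.03 to 1.82), where 1.99% of genes tested in all 14 pairs are above 0 in every one and 1.77% below. Egr2 is above 0 in 13 (lowest -0.35) and Srf below 0 in 12, counts whose shares over all genes were not computed.

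The libraries with hairpins against Set1a+Set1b or labelled Pnuts were compared with scrambled ones in the same way. At 45 min 3 of 9 genes were at least 2-fold higher with the Set1a+Set1b hairpins (3.91% of all genes) and none lower (2.92%). These were Nr4a3 at 0.525 and 4.79 FPKM, Nr4a1 at 6.25 and 15.0 FPKM, and Egr3 at 6.86 and 15.1 FPKM. For Nr4a3 and Nr4a1 the deposited bounds did not overlap (0.868% of all genes). In untreated cells Egr1 alone was 2-fold higher (9.21 and 22.5 FPKM), where 3.08% of all genes were and 2.17% were 2-fold lower, and its bounds were apart (0.564%). No gene of the 9 tested passed in the limma fit over both conditions, in which 5 genes in all were higher and 5 lower (0.0366% each). Of these genes 2 of 9 had an unadjusted p under 0.05, as had 21.9% of all genes. Egr2 was 0.74 (adjusted p = 0.173) and Ier3 0.70 (adjusted p = 0.16) in that limma fit.

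In the libraries labelled Pnuts hairpin, Egr2 was 1.44 and 7.03 FPKM in untreated cells and 66.2 and 154 FPKM at 45 min. Egr1 was 3.13 and 6.502 FPKM in untreated cells and 306 and 805 FPKM at 45 min. These 2 genes were 2-fold higher at 45 min (6.65% of all genes) and none was lower (4.21%), while Egr2 alone was 2-fold higher in untreated cells (3.82%, with 2.89% lower). The limma differences were 1.46 (SE 0.173, adjusted p = 0.089) for Egr2 and 1.13 (SE 0.174, adjusted p = 0.101) for Egr1. None of the 9 passed, where 0.0509% of all genes were higher and 0.0363% lower, and 3 of the 9 had an unadjusted p under 0.05 in limma, as had 25.5% of all genes. Ier3 was 73.8 and 75.3 FPKM in untreated cells and 409.9 and 616 FPKM at 45 min, a difference of 0.31 (limma adjusted p = 0.351). Srf was lower in both pairs (12.8 and 8.39 FPKM, then 11.4 and 6.92 FPKM; -0.60, limma adjusted p = 0.124).

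Cell markers differed between the vectors in these 2 sets. The neutrophil sum was 7.88 and 11.4 FPKM in scrambled libraries and 33.2 and 39.1 FPKM with the Set1a+Set1b hairpins, while in the Pnuts set it was 24.1 and 29.0 FPKM in scrambled and 10.9 and 6.99 FPKM in hairpin libraries. The macrophage sum was higher with the hairpins in both sets, at 3365 and 5107 FPKM against 5723 and 8881 FPKM in the Set1a+Set1b set, and 3372 and 5078 FPKM against 7150 and 9707 FPKM in the Pnuts set. Their part in the differences between vectors was not tested.

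Over the 4 pairs of control and hairpin libraries taken at 45 min without DRB, Egr1, Egr2, Egr3, Nr4a3, Ier2 and Ier3 were higher with the hairpin in every pair. Among all genes tested in the 4 pairs, 16.8% were higher in every one and 17% lower. Egr2 had log2 ratios of 0.96 to 1.21, and Nr4a3 had 0.49 to 1.93. Srf was lower in every pair (-0.64 to -0.21), and Ier5 hardly differed (-0.02 to 0.09).

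The DRB set asked which RNA still appeared when elongation was inhibited. Ier3, Egr2 and Ier5 were lower with DRB and passed. Ier3 was 218 FPKM without and 22.6 FPKM with DRB in scrambled cells, and 401 and 25.9 FPKM in sh1137 cells (limma difference -3.56, SE 0.206, adjusted p = 0.00218). Egr2 was 17.2 and 2.67 FPKM in scrambled and 38.8 and 4.27 FPKM in sh1137 cells (-2.61, SE 0.222, limma adjusted p = 0.00381). Ier5 was 61.2 and 37.8 FPKM in scrambled and 62.4 and 18.5 FPKM in sh1137 cells (-1.19, SE 0.273, limma adjusted p = 0.0259). Without trend the adjusted p of Ier5 was 0.0656. For Ier3 and Egr2 both DRB libraries lay below both libraries without DRB by a wide margin. With DRB the 2 vectors were within 0.19 of each other for Ier3 on the log2 scale, against 0.88 without it. The log2 ratio of DRB over no DRB in sh1137 minus that in scrambled cells was -0.685 for Ier3. It was lower for Ier2 (-1.03), Ier5 (-1.02), Egr1 (-0.997) and Nr4a3 (-0.993). Egr2 (-0.607) and Nr4a2 (-0.314) were also negative, while Egr3 (0.28), Nr4a1 (0.20) and Srf (0.34) were positive. These differences rest on 1 library per condition and were not tested, so the narrowing is not shown to be particular to Ier3.

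Egr1 and Ier2 did not show a fall of this kind in FPKM. Since FPKM is relative to the mapped fragments of its library, a steady value does not show a steady output of RNA with DRB. Egr1 was 54.7 FPKM without and 74.2 FPKM with DRB in scrambled cells, and 101 and 68.1 FPKM in sh1137 cells (-0.06, SE 0.265, limma adjusted p = 0.857). Ier2 was 42.5 and 49.0 FPKM in scrambled cells and 46.9 and 26.0 FPKM in sh1137 cells (-0.31, SE 0.275, limma adjusted p = 0.393). For both genes the ranges with and without DRB overlapped. Srf was 7.11 and 7.20 FPKM, and 5.99 and 7.94 FPKM (0.19, limma adjusted p = 0.484). Egr3, at 1.35 FPKM and listed at 0, and at 1.75 and 0.419 FPKM, did not pass (-1.09, limma adjusted p = 0.0819), but did without trend (adjusted p = 0.0347).

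Thus 3 of 9 genes tested were lower and none higher with DRB, where 17.6% of all genes were lower and 24.1% higher, with a median of all genes at 0.16. Of 29 other immediate early genes measured, 25 were lower and none higher (median -2.49). Zfp36, which encodes the mRNA-destabilising protein tristetraprolin, had the lowest ratio in scrambled cells at 877 and 42.6 FPKM, and Jund the highest at 15.2 and 17.3 FPKM. The Ier3 locus is 1.20 kb long and that of Ier2 1.52 kb. The macrophage sum was 3378 FPKM without and 6477 FPKM with DRB in scrambled cells, and 3224 and 5946 FPKM in sh1137 cells. The set has no untreated library, so a response to LPS cannot be computed from it. At the same LPS time Egr1 without DRB was 54.7 FPKM with the scrambled hairpin here, and 306 and 409.8 FPKM in the scrambled libraries of the Pnuts and Set1a+Set1b sets, tables that were normalized separately. At sh1137 none of 9 genes passed in the DRB set (limma, 0.0854% of all genes higher and 0.0356% lower, 1 of the 9 with an unadjusted p under 0.05, as had 12.3% of all genes).

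**Figure D4:**
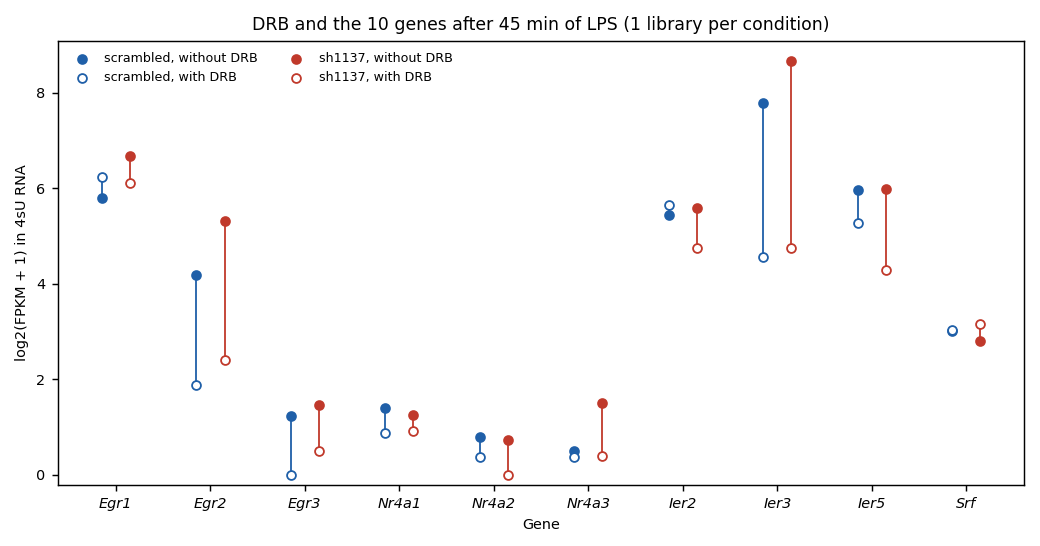
Log2(FPKM + 1) in 4sU RNA (y axis) of the 10 genes (x axis) after 45 min of LPS, without DRB (filled) and with DRB (open), in scrambled (blue) and sh1137 (red) libraries, 1 library per point. The lines of Ier3 and Egr2 are the longest, those of Srf are short, and Egr1 and Ier2 move up in scrambled and down in sh1137 libraries.

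In polyA RNA, which holds accumulated transcripts, 6 of the 10 genes reached 1 FPKM in at least 1 library. Ier3 was 10.9 and 49.9 FPKM in LMP cells before and after 4 h of LPS, and 25.0 and 88.1 FPKM in sh1137 cells (limma difference 1.93, SE 0.144, adjusted p = 0.00678). Nr4a3 was 0.0491 and 2.67 FPKM in LMP and 0.049 and 7.38 FPKM in sh1137 cells (2.40, SE 0.357, limma adjusted p = 0.0198). Those 2 genes rose and none fell, where 23.5% of all genes rose and 11.8% fell, and the median of all genes was 0.14. Egr2 was 0.664 and 0.386 FPKM in LMP and 1.49 and 1.15 FPKM in sh1137 cells. Egr1 stayed at 0.199 to 0.961 FPKM in the 4 polyA libraries.

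The 10 genes did not form a single group over the 28 libraries. Correlations of log2(FPKM + 1), centred within each set, describe libraries that share LPS, vector and depth differences, and they carry no test. They were highest for Egr1 with Ier2 and Egr3 with Nr4a1 (r = 0.94 each), and 0.90 for Nr4a2 with Nr4a3. Nr4a3 had r = -0.02 with Egr1 and r = -0.51 with Srf. The genes outside the 10 with the most similar courses to the mean of the EGR genes were Apold1 (r = 0.96), Errfi1 (0.93) and Tpt1 (0.91) among 8100 genes compared. Apold1 was 0.928 FPKM in untreated and 36.6 FPKM in 45 min LMP cells. For the IER genes they were Dusp1 (0.95), a MAP kinase phosphatase gene, Btg2 (0.95) and Ifrd1 (0.94). For the mean of the NR4A genes they were Plscr1 (0.92), Gpr85 (0.90) and Cdkn1a (0.89), the gene for the cell cycle inhibitor p21. Nr4a1 had r = 0.06 with Nr4a2 and r = 0.07 with Nr4a3, so a likeness to the family mean need not hold for Nr4a1. Gpr85 was 1.04, 6.62, 18.4 and 24.3 FPKM in LMP cells that were untreated or had 45 min, 2 h or 4 h of LPS.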

How the data were processed

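TopHat 1.3.1, Cufflinks 2.1.1, Cuffdiff 2.1.1 and the build mm9 are named in the submitters' processing notes. The sources used here give neither the gene annotation nor how libraries were scaled, nor which confidence level the bounds have. The authors deposited 6 tables of FPKM with a lower and an upper bound and a status for each value, and no counts, so intervals on counting error were not computed. FPKM from a table were compared only within it, as log2(FPKM + 1). A pair of libraries was called at 2-fold among genes of at least 1 FPKM in either library and status OK in both, with no test.

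Additive fits of vector plus condition used limma 3.58.1 in R 4.3.3 (lmFit, eBayes with trend) on genes of at least 1 FPKM in at least 1 library of the table and status OK in all, with Benjamini-Hochberg adjustment over all genes tested and calls at an adjusted p under 0.05. Residual degrees of freedom were 3 in the unstranded set, 2 in its interaction fit and 1 in the other sets. Tested on simulated data for sh1137 against LMP, the fit recovered 42 of 50 genes raised by 1 and 40 of 50 lowered by 1 (log2) among 16106 genes in the unstranded set, with 4 of 15906 unchanged genes called, and 3 of 50 and 2 of 50 among 14312 genes in the stranded set. The raised and lowered genes were drawn from those with a mean log2(FPKM + 1) above that of 5 FPKM, with independent normal noise. Over the 28 libraries Egr3, Nr4a1 and Nr4a2 had medians of 0.878, 1.72 and 0.528 FPKM, so the recovery does not describe genes at such levels. Low counts of calls in the sets with 1 residual degree of freedom are to be read with the recovery in the stranded set.

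The 10 genes and the lists were chosen with earlier results of these data known. Named genes were the members, the genes most correlated with each family, the targeted genes, and list members with the highest and lowest ratio. List members that passed a fit were named in addition, after their values were seen. The alternatives were a pseudocount of 0.1 FPKM, no filter or a filter at 5 FPKM, centring each library on its median, eBayes without trend, and leaving out each pair of the unstranded set. Promoter windows come from a RefSeq table (GRCm38.p6), whose coordinates are not mixed with the mm9 loci of the tables.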

Additional observations from a re-analysis of the deposited data

Results flagged for a closer look

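Egr1 is the one gene of the 10 whose LPS ratio had opposite signs in pairs of libraries taken at different times, beyond 2-fold on both sides. At 45 min its log2 ratio over untreated cells was 6.56 with LMP and 6.94 with sh1137 in the unstranded set. It was 5.33 with the scrambled and 4.34 with the Set1a+Set1b hairpins, and 6.21 with the scrambled hairpin and 6.75 in the libraries labelled Pnuts hairpin, in their sets. In the libraries titled 1 h of the stranded set it was -2.16 with LMP and -2.43 with sh1137, and at 2 h with LMP in the unstranded set -1.12. The difference between these times was not tested. Untreated Egr1 was 26.8 and 34.5 FPKM in the stranded set and 2.84 and 2.61 FPKM in the unstranded set. No condition has 4 libraries, so no library could be examined as standing apart from its group.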

How the results depend on the processing

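Of 777 differences of single genes recomputed under the alternatives, 717 kept their direction and their side of the threshold, 43 lost the call, 8 gained it and 9 changed sign. The 9 that changed sign were not called under either setting. With a pseudocount of 0.1 FPKM they were Egr1 at 4 h (-0.00208), Egr3 with sh1137 in the stranded set (-0.0111) and Nr4a3 in the libraries labelled Pnuts hairpin (-0.15). With centred libraries they were Egr1 at 4 h (-0.0607), Egr3 with sh1137 in the stranded set (-0.0266) and Ier2 at 4 h in polyA RNA (-0.0445). Without the 45 min pair they were Nr4a1 with sh1137 (-0.0592) and the interaction estimates of Egr3 (-0.0072) and Nr4a1 (-0.0336). Over the pairs left out in turn, these 3 differences ran up to 0.256, 0.391 and 0.44.

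With no filter on FPKM the count with sh1137 in the unstranded set went from 1 to 0, at 2 h of LPS from 4 to 2, in the stranded set from 1 to 0 with sh1137 and from 2 to 0 at 1 h, in polyA RNA from 2 to 0, with DRB from 3 to 0, and at 45 min from 5 to 0 in the Set1a+Set1b set and from 4 to 0 in the Pnuts set. With no filter none of the 36534 (stranded), 36507 (polyA) or 36530 (DRB, Set1a+Set1b) genes passed in those fits, 196 of 36534 passed with sh1137 in the unstranded set, and 59 of 36542 at 45 min in the Pnuts set. Without trend the counts were 0 with sh1137 and 0 at 1 h in the stranded set, and 0 at 45 min in the Set1a+Set1b and Pnuts sets, and no gene of any kind passed in these 4 fits. With DRB the count stayed at 3 without trend, with Ier5 lost (limma adjusted p = 0.0656) and Egr3 gained (0.0347). The cause was not tested. With a pseudocount of 0.1 FPKM the sh1137 count in the unstranded set was 2, Egr3 being added (1.83, limma adjusted p = 0.0245), and Nr4a3 passed at 45 min (3.20, limma adjusted p = 0.0324). Leaving out 1 pair of the unstranded set gave counts of 0 to 1 with sh1137, 7 at 45 min, 3 to 4 at 2 h and 3 at 4 h. With sh1137 these refits called 3 to 522 genes in all, against 1762 with every pair. In single pairs, 97 of 246 ratios of the 10 genes were at least 2-fold, summed over the 30 pairs (39.4%, against 14.1% for all genes), and 53 had deposited bounds apart (21.5% against 1.56%).

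No paired analysis was possible because the labels give no replicate numbers to block on. The additive fits already compare vectors within each condition.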
